A study of Mus musculus with 18 samples.

Results

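Every protein a cell makes is assembled by the ribosome, and the genes described here encode the protein part of the cytosolic ribosome. They were the rows of the deposited count table whose symbol follows the naming of ribosomal proteins of the large subunit (Rpl), the small subunit (Rps), the acidic stalk (Rplp0, Rplp1, Rplp2) or Rpsa, without the ending that marks pseudogenes. The rule found 81 of the 15730 genes in the table, 48 of the large subunit, with the 3 stalk proteins among them, and 33 of the small subunit. The tissue was the sciatic dorsal root ganglia, which hold the cell bodies of the sensory neurons whose axons run in the sciatic nerve. C57BL/6 mice aged 6-8 weeks were used, and each of the 18 samples pooled the ganglia of 2 mice, 24 hours after treatment. Sham_Saline was a sham operation with saline, SNA_Saline a sciatic nerve injury with saline, SNA_NAC a sciatic nerve injury with 30 mM N-acetyl-cysteine (an antioxidant), and Sham_H2O2 a sham operation with 13 mM hydrogen peroxide. DCA was an injury of the dorsal columns of the spinal cord, where the central axons of the same neurons run, and LAM was laminectomy, the bone opening that such an injury needs. Each group had 3 samples, and the labels give no transgene.

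The ribosome has a small subunit that reads the messenger RNA and a large subunit that joins amino acids, and most of its proteins are present in 1 copy. Their messenger RNAs typically start with a C followed by a run of C and T (U in the RNA), the terminal oligopyrimidine tract, through which the mTOR pathway sets how strongly they are translated. In injured sensory neurons, messenger RNAs of ribosomal proteins are also known to be carried into axons and translated there. RNA sequencing measures the amount of these messenger RNAs and not their translation, the amount of ribosomes or the phosphorylation of any ribosomal protein.

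Runs of C and T near the annotated start were more frequent among the members than among all genes. RefSeq promoter sequences (GRCm38.p6) were matched by symbol for 60 of the 81 members, with 72 annotated starts. A run of at least 7 bases that begins with C and holds only C and T, on the transcript's own strand and within 30 bases of the annotated start, was found at 40 of the 72 member starts (55.6%). The same run was found at 26.5% of all 32851 annotated starts in the table. The 8 sequences below are 30 bases each, 5′ to 3′, and show genes that the results name, 6 with such a run in capitals and 2 without one (Rplp0 and Rps4x, centred on the annotated start). Counted from 0 at the annotated start, the runs begin at -17 (Rpl4), -1 (Rps6), -2 (Rps18), 1 (Rpl18), 3 (Rpl22l1) and -22 (Rps27l), and whether a messenger RNA begins within its run was not tested.
Rpl4: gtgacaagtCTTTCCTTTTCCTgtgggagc
Rps6: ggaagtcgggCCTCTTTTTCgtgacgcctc
Rps18: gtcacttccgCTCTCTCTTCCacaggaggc
Rpl18: tcgcaggccgCTCTTTCCCCgcccactccg
Rpl22l1: gcaagcccgttCTCTTCCCacggctgcagc
Rps27l: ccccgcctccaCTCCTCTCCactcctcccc
Rplp0: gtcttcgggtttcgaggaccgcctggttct
Rps4x: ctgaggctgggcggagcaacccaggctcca
Their positions are chr9:64173361-64173390 (plus strand) for Rpl4, chr4:86857349-86857378 (minus) for Rps6, chr17:33955648-33955677 (minus) for Rps18, chr7:45718062-45718091 (plus) for Rpl18, chr3:28805500-28805529 (plus) for Rpl22l1, chr9:66946053-66946082 (plus) for Rps27l, chr5:115559452-115559481 (plus) for Rplp0 and chrX:102189377-102189406 (minus) for Rps4x. The letters CCGGAAG, on either strand of the 300 bases around a start, stood at 25 of the 60 matched members (41.7%) and at 9.93% of all genes in the table. At 1 member start the opposite-strand form, CTTCCGG, overlapped the run. A match describes the letters only. The median log2 fold changes of the 37 members with a run and the 23 without one were -0.28 and -0.25 for SNA_NAC against SNA_Saline, and -0.14 and 0.04 for SNA_Saline against Sham_Saline, with a median GC share of 52.6% and 50.5%.

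The ganglia held ribosomal protein messenger RNA at high levels per length. Levels between genes are compared here in FPKM, the authors' value scaled to gene length and library size. The median member stood at 101 FPKM, the mean over 18 samples, against 4.87 for the median gene of the table, and 78 of 81 members exceeded 20 FPKM. Among the highest members were Rps24 with a mean of 422 FPKM (range over samples 291 to 641), Rps3a1 with 416 (302 to 514) and Rpl4 with 368 (309 to 435). These 3 ranges overlap widely, so their order does not hold beyond the spread between samples. The lowest were Rpl3l with 0.871 FPKM, Rps4l with 6.23, Rpl18 with 12.4 and Rplp2 with 21.6. FPKM rests on the gene model the authors used, and 56 of the 81 members have annotated pseudogenes named after them; how reads shared with these copies were counted is not given in the sources used here. Another gene overlaps 24 of the members on the opposite strand and 33 on the same strand, among them Rpl18, Rpl5 and Rps18.

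**Figure D1:**
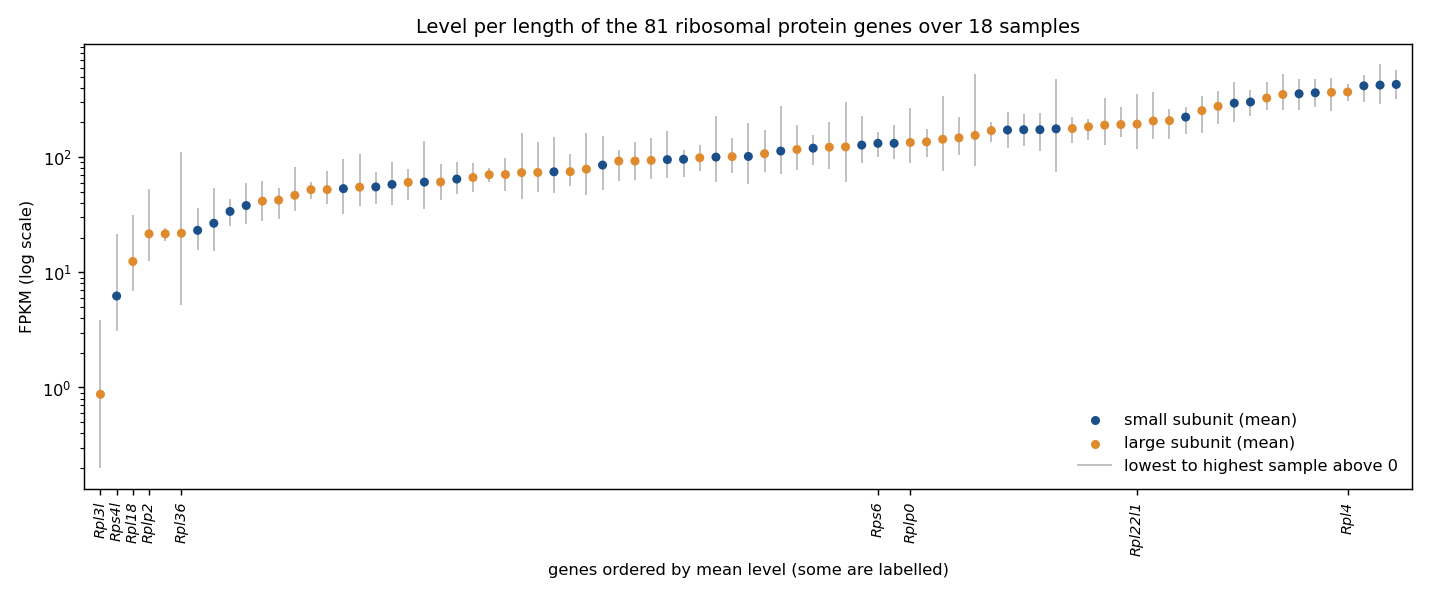
Each of the 81 ribosomal protein genes, ordered by mean level, with its mean over 18 samples (point, FPKM on a log scale, coloured by subunit) and the range over samples above 0 (grey line); 9 genes are labelled. Rpl3l is lowest at 0.871 FPKM, and 78 of the 81 lie above 20 FPKM.

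The depth of the libraries ran from 6472476 to 42435331 counts. The 9 sensory neuron markers were present in every library, with a summed level of 14364 to 21842 CPM (counts scaled to library size, after TMM), and the 6 Schwann cell markers summed to 6958 to 11063 CPM. Ribosomal protein genes took 1.09% to 1.95% of the counts of a library. By replicate 1 to 3, their share was 1.09%, 1.85% and 1.88% in Sham_Saline, 1.50%, 1.30% and 1.68% in SNA_Saline, and 1.34%, 1.21% and 1.19% in SNA_NAC. It was 1.37%, 1.45% and 1.65% in Sham_H2O2, 1.36%, 1.47% and 1.40% in LAM, and 1.57%, 1.33% and 1.95% in DCA. The lowest, the second highest and the third highest share of all 18 libraries came from the same group, Sham_Saline, and each pair of groups that the study compares overlapped. Sham_Saline replicate 1 stood apart from its group: 0 of its 81 members lay above their own mean over the 18 samples, against 62 and 80 in replicates 2 and 3. Counts of called members and medians over the 81 members in the comparisons with Sham_Saline are therefore also given without this library. It was picked by the member values themselves, so these counts follow in part from that choice and are not evidence about the members. In whole ganglia, fewer cells of a type and less RNA per cell cannot be told apart.

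**Figure D2:**
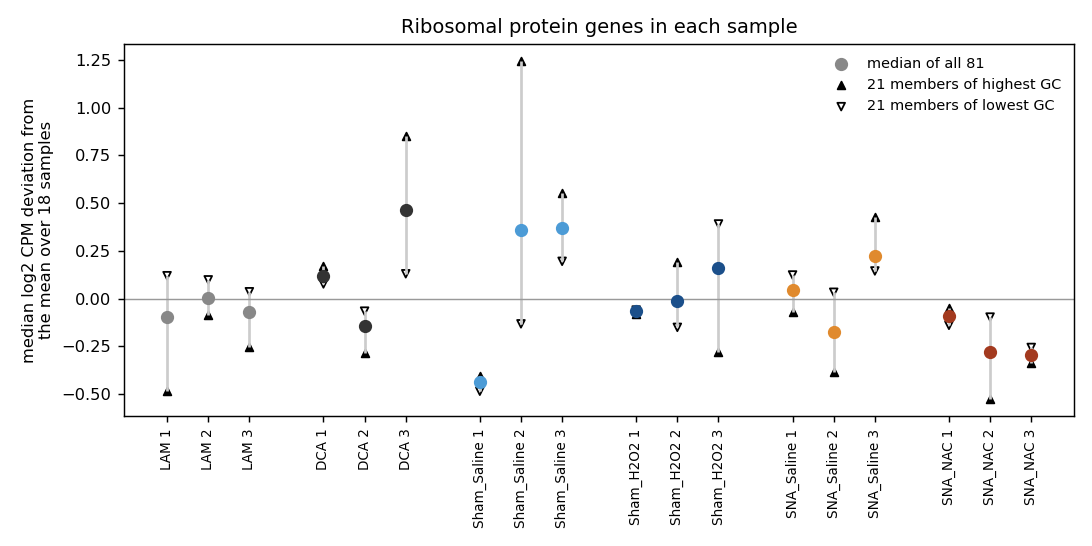
Median deviation of the ribosomal protein genes from their mean over the 18 samples, in log2 CPM, for all 81 members (coloured circle), for the 21 with the highest GC share (filled triangle) and for the 21 with the lowest (open triangle). Sham_Saline replicate 1 lies at -0.44 and replicates 2 and 3 at 0.36 and 0.37.

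No ribosomal protein gene passed the test in any of 7 comparisons. With edgeR's quasi-likelihood test, adjusted over all genes at 0.05, the count was 0 of 81 for SNA_Saline against Sham_Saline (2.73% of all genes passed), for DCA against LAM (0%), for SNA_NAC against SNA_Saline (0%) and for SNA_NAC against Sham_Saline (3.32%). It was also 0 of 81 for Sham_H2O2 against Sham_Saline (0%), for Sham_Saline against LAM (0.0699%) and for the difference between the sciatic and the dorsal column response (1.61%). At an unadjusted p under 0.05, the same 7 comparisons held 6, 7, 1, 34, 7, 26 and 28 members in that order, where 22.5%, 5.04%, 2%, 27.6%, 9.15%, 30.3% and 31.4% of all genes did so. As shares of the 81, these counts are 7.41%, 8.64%, 1.23%, 42.0%, 8.64%, 32.1% and 34.6%. DESeq2 called 0, 0, 0, 1 (Rpl36), 0, 3 (Rpl36, Rpl18 and Rps4l) and 7 members, against 5.49%, 0.0127%, 0%, 7.77%, 0.0254%, 6.88% and 10.4% of all genes, and limma on log2(FPKM + 1) called 0 in all 7. The 7 of the last comparison were all lower, with Rps18, Rps26, Rpl28, Rpl36, Rpl18 and Rps15 among them. The standard error of a member's log2 fold change was typically 0.21 (median), and 0.29 for the difference between responses. A missed threshold at this precision does not show that a level was the same.

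The median log2 fold change of the members was -0.14 for SNA_Saline against Sham_Saline, 0.22 for DCA against LAM, -0.27 for SNA_NAC against SNA_Saline and -0.36 for SNA_NAC against Sham_Saline. It was -0.14 for Sham_H2O2 against Sham_Saline, 0.20 for Sham_Saline against LAM and -0.35 for the difference between responses. Over all genes the same medians lay between -0.03 and 0.02. The per-sample median of the members varied between replicates of a group with a pooled SD of 0.25. Large and small subunit genes had medians of -0.13 and -0.15 for SNA_Saline against Sham_Saline, 0.23 and 0.22 for DCA against LAM, -0.27 and -0.27 for SNA_NAC against SNA_Saline, and -0.37 and -0.35 for SNA_NAC against Sham_Saline. They had -0.11 and -0.19 for Sham_H2O2 against Sham_Saline, 0.20 and 0.24 for Sham_Saline against LAM, and -0.35 and -0.35 for the difference, with no test between the subunits.

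**Figure D3:**
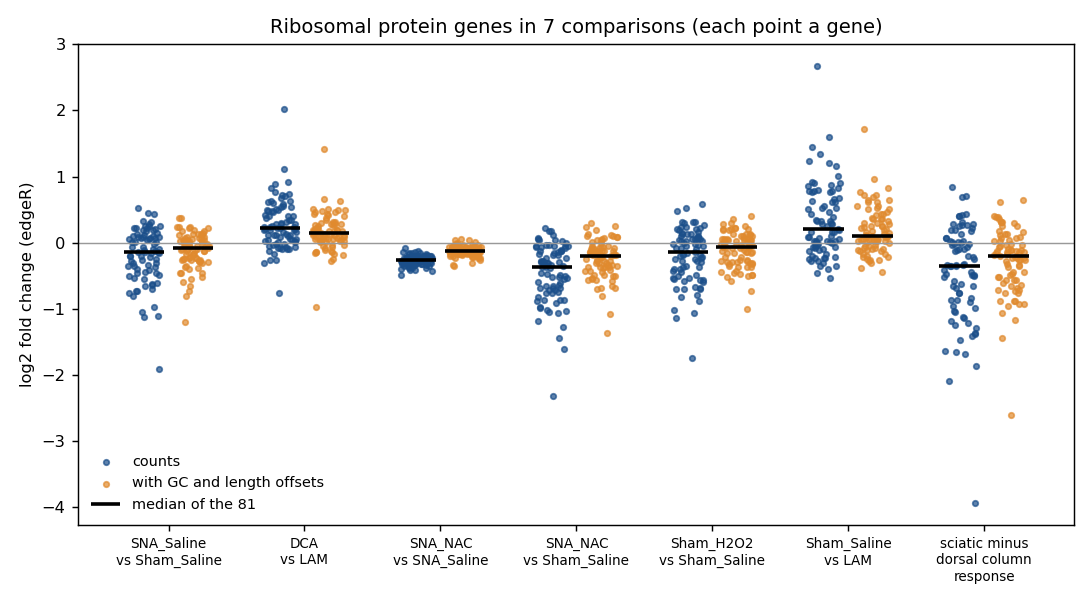
Fitted log2 fold change of each of the 81 ribosomal protein genes in 7 comparisons, from the counts (blue) and after each library's dependence on GC share and length was offset (orange), with the median of the 81 as a bar. From the counts, the points of SNA_NAC against SNA_Saline lie close together and below 0, and those of the other comparisons spread to both sides. With the offsets, 4 of the 81 points of SNA_NAC against SNA_Saline lie above 0.

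How far a member lay from that median followed its base composition. Members had shorter transcripts than other genes, with a median of 775 bases against 2753.5, and a GC share of 40.6% (Rpl22l1) to 60.8% (Rpl36), with a median of 51.9% against 50.3%. Across the 81 members, Spearman's rho between GC share and log2 fold change was -0.77 for SNA_Saline against Sham_Saline and 0.69 for DCA against LAM. Over the 15648 genes with a known length and GC share it was -0.60 and 0.66. For the other comparisons rho over the members was -0.21 (SNA_NAC against SNA_Saline), -0.76 (SNA_NAC against Sham_Saline), -0.75 (Sham_H2O2 against Sham_Saline), 0.77 (Sham_Saline against LAM) and -0.76 (difference between responses). These points share the same libraries, so the values are descriptions. The 21 members of highest GC had a median log2 fold change of -0.62 after sciatic injury with saline and 20 of them were below 0, whereas the 21 of lowest GC had 0.19 and 18 of them were above 0. After dorsal column injury the corresponding medians were 0.59 and -0.04. For transcript length, rho over the members was between -0.17 and 0.20 in 6 comparisons, and 0.32 for SNA_NAC against SNA_Saline, where it was larger in size than that for GC share.

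The same gradient was seen within single libraries. In Sham_Saline replicate 2 a member's deviation from its mean over samples rose by 1.22 on the log2 scale for each 10 percentage points of GC share, the steepest of the 18 libraries, and over all genes by 0.71. In Sham_Saline replicates 1 and 3 the slope over members was 0.08 and 0.22, so the group was not of one kind. The steepest negative slopes were in Sham_H2O2 replicate 3 (-0.60) and LAM replicate 1 (-0.55). With offsets that take out each library's relation to GC share and length, the median SD of a member over the 18 samples fell from 0.27 to 0.18, and 74 of the 81 members varied less. The offsets were fitted to genes of these same libraries, so a smaller spread is partly built in. They also take out any group difference that follows GC share or length. The share of all genes that varied less is not given, so the count is not particular to the members. The members' median log2 fold changes with the offsets were -0.08, 0.14, -0.13, -0.21, -0.07, 0.11 and -0.20 in the order of the 7 comparisons above. The rho between GC share and log2 fold change shrank to -0.40 for SNA_Saline against Sham_Saline and to 0.29 for DCA against LAM, and for SNA_NAC against SNA_Saline it changed sign, from -0.21 to 0.30. The relation to GC share differed between libraries, and its part in each single difference was not tested beyond these offsets.

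**Figure D4:**
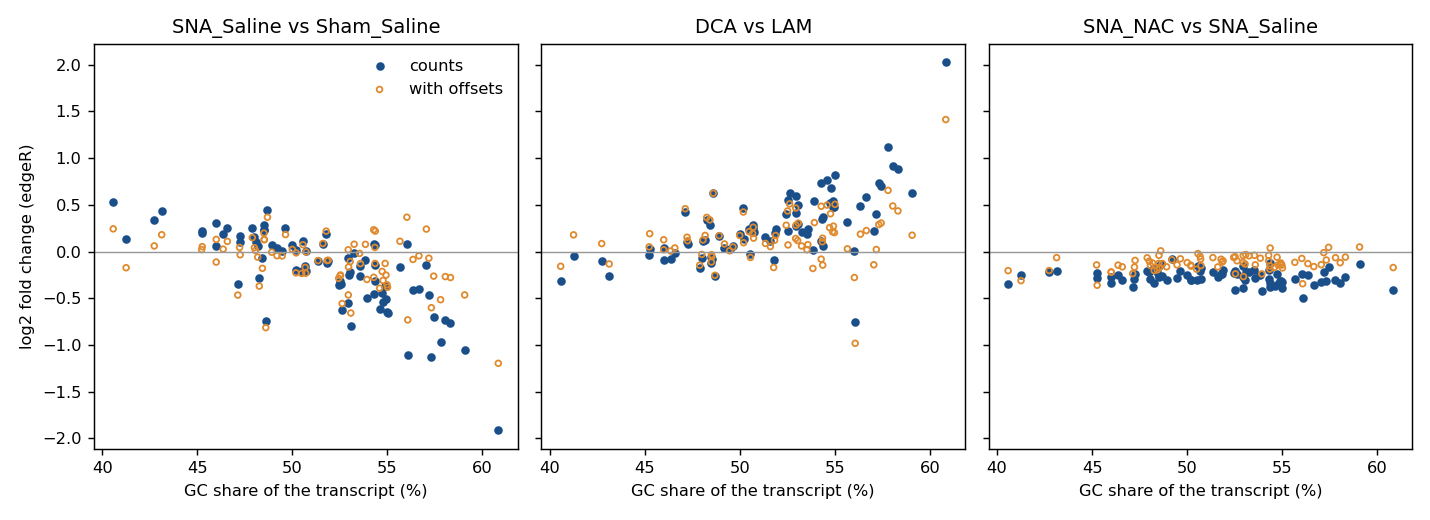
Log2 fold change of each ribosomal protein gene against the GC share of its transcript in 3 comparisons, from the counts (filled) and after offsetting GC share and length (open). The relation falls from left to right after sciatic injury, rises after dorsal column injury and is weak for SNA_NAC against SNA_Saline.

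Rpl36, a large subunit protein (chr17:56613416-56614243, plus strand, 4 exons), lay farthest from 0 in 6 of the 7 comparisons (all but SNA_NAC against SNA_Saline, where Rpl3l did) and has the highest GC share of the family. Its CPM by replicate was 5.53, 45.0 and 12.6 in Sham_Saline, 4.55, 3.24 and 8.77 in SNA_Saline, 5.07, 2.38 and 4.94 in SNA_NAC and 5.95, 8.42 and 3.81 in Sham_H2O2. In the dorsal column arm it was 2.17, 4.01 and 3.46 in LAM and 8.07, 4.53 and 27.1 in DCA. One library, Sham_Saline replicate 2, was far above the rest, and DCA replicate 3 was second. The DCA and LAM samples did not overlap, and neither did the Sham_Saline and LAM samples. Of the 81 members, 3 lay higher without overlap in DCA than in LAM and 4 lay lower. For Sham_Saline against LAM, 3 lay higher in this way and 1 lower. The share over all genes is not given for these 2 comparisons, so no weight is put on a lack of overlap in them. For Rpl36, SNA_Saline against Sham_Saline gave a log2 fold change of -1.91 (SE 0.69, edgeR adjusted p = 0.144), and DCA against LAM gave 2.02 (SE 0.71, adjusted p = 0.624). The difference between the 2 responses was -3.94 (SE 0.99, edgeR adjusted p = 0.0557), the smallest adjusted p of any member in any comparison. With the GC and length offsets this difference was -2.61 and passed (edgeR adjusted p = 0.0196), with 2 of 81 members called against 5.72% of all genes; the other was Rps2, a small subunit protein with 11 named pseudogenes, at 0.65 (adjusted p = 0.0467), named after its value was seen. For SNA_NAC against Sham_Saline, Rpl36 had -2.32 (SE 0.68, adjusted p = 0.0712) from the counts and -1.37 (adjusted p = 0.0481) with the offsets, the only member called there, against 7.77% of all genes. With the offsets and the replicate block together, 0 members were called there and the smallest edgeR adjusted p was 0.0688. Rpl36 has 9 annotated pseudogenes named after it, so its counts are uncertain.

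The stalk proteins recruit the factors that drive elongation. Rplp1, of 57.3% GC, had 42.3, 265 and 109.7 CPM in Sham_Saline, 59.5, 45.3 and 85.5 in SNA_Saline, 42.9, 62.7 and 59.2 in LAM and 73.0, 49.95 and 151 in DCA. Again Sham_Saline replicate 2 was highest and DCA replicate 3 second, and the groups overlapped. Sciatic injury with saline gave Rplp1 a log2 fold change of -1.13 (SE 0.48, edgeR adjusted p = 0.192). Rplp0, the base of the stalk and often taken as a reference gene for PCR, had 172, 444 and 298 CPM in Sham_Saline, 194, 157 and 271 in SNA_Saline and 217, 162 and 178 in SNA_NAC. Its level was 154, 195 and 183 CPM in LAM, 226, 192 and 382 in DCA and 197, 249 and 168 in Sham_H2O2. The lowest and the highest Sham_Saline library were farther apart than any pair of group means. Rplp0 gave a log2 fold change of -0.55 (SE 0.30, edgeR adjusted p = 0.272) after sciatic injury and 0.59 (SE 0.30, adjusted p = 0.624) after dorsal column injury. Rplp2 gave -0.65 and 0.47 in the same comparisons, with SEs of 0.39 in both.

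Rps15, a protein of the small subunit head with 57.8% GC, had 82.4, 304 and 176 CPM in Sham_Saline and 48.1, 82.3 and 75.3 in LAM. These lay apart only by 82.4 against 82.3 CPM, and the share of all genes without overlap is not given. Its difference between these surgical controls was 1.45 on the log2 scale (SE 0.47, edgeR adjusted p = 0.104). Rps15 was at 116, 81.5 and 251 CPM in DCA, with 1.12 (SE 0.47, adjusted p = 0.624) against LAM. Rpl18, a large subunit protein of 58.3% GC, had 39.3, 129 and 69.7 CPM in Sham_Saline and 28.6, 38.7 and 33.9 in LAM. Its groups again lay narrowly apart (39.3 against 38.7 CPM), with a log2 fold change of 1.23 (SE 0.39, edgeR adjusted p = 0.104). Rps18, another protein of the small subunit head, had 87.0, 114 and 100.3 CPM in LAM and 152, 110.5 and 236 in DCA, which overlapped, and 0.73 (SE 0.30, adjusted p = 0.624).

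No member with a further role outside protein synthesis passed the test after sciatic injury. Rps6, whose phosphorylation is the usual readout of mTOR signalling, had 158, 228 and 251 CPM in Sham_Saline and 239, 195 and 236 in SNA_Saline, with a log2 fold change of 0.07 (SE 0.15, edgeR adjusted p = 0.77). Rpl5 and Rpl11, which bind Mdm2 and thereby stabilise p53 when ribosome assembly fails, gave 0.33 (SE 0.19, adjusted p = 0.285) and -0.07 (SE 0.18, adjusted p = 0.837) for the same comparison. Rpl5 has one of the lowest GC shares (42.7%) and had 285, 309.6 and 432 CPM in Sham_Saline and 444, 444 and 405 in SNA_Saline, which overlapped. Rpsa, also known as the laminin receptor, gave -0.41 (SE 0.24), Rps3, which also acts in DNA repair, -0.07 (SE 0.18), and Rps27a, made as a fusion with ubiquitin, 0.28 (SE 0.19), with adjusted p-values of 0.31, 0.825 and 0.347.

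Paralogs differed from their partners in level and in base composition. Rpl22l1 is a paralog of Rpl22 that can stand in for it, and in the authors' FPKM it was the higher of the pair, at 371% ± 90.4 of Rpl22 (SD over 18 samples). Its mean count was the lower of the pair, 1667 against 2850.5, on annotated transcripts of 552 and 474 bases. The order of the pair therefore depends on the gene model behind the FPKM. By replicate, Rpl22l1 had 57.4, 66.2 and 101 CPM in Sham_Saline, 116, 108 and 99.0 in SNA_Saline, 121, 99.9 and 105 in LAM and 96.8, 87.3 and 77.4 in DCA. The DCA samples all lay below the LAM samples, as for 4 of the 81 members, with no share over all genes given. DCA against LAM gave a log2 fold change of -0.32 (SE 0.27, edgeR adjusted p = 0.64), and SNA_Saline against Sham_Saline gave 0.53 (SE 0.27, adjusted p = 0.253). Rpl22l1 has the lowest GC share of the 81 members, and with the offsets these values were -0.16 and 0.24. Rpl22 had the smallest spread between replicates of all members, with a pooled SD of 0.11 in log2 CPM.

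Rps27l, a paralog of Rps27 known as a target of p53, had 31.1, 38.6 and 48.1 CPM in Sham_Saline and 57.4, 52.9 and 48.3 in SNA_Saline. In CPM it was the 1 of 81 members with all SNA_Saline samples above all Sham_Saline samples, as in 10.3% of all genes, and with the offsets there were 3, against 12.2%. Rps27l had a log2 fold change of 0.43 (SE 0.20, edgeR adjusted p = 0.217), and 0.18 (adjusted p = 0.28) with the offsets. In DCA it had 45.4, 42.6 and 41.5 CPM and in LAM 56.9, 50.3 and 48.7, with -0.26 (SE 0.20, edgeR adjusted p = 0.624). All DCA samples lay below all LAM samples, as for 4 of the 81 members, with no share over all genes given. Relative to Rps27, its FPKM lay between 12.7% and 13.9% in Sham_Saline and between 15.5% and 20.2% in SNA_Saline. It lay between 16.3% and 18.9% in LAM and between 10.8% and 13.8% in DCA, so neither pair of groups overlapped. In Sham_H2O2, without nerve injury, it lay between 13.93% and 19.5%, and in SNA_NAC between 17.2% and 22.4%. These groups too lay above all Sham_Saline samples, of which the highest was 13.87%. How often other pairs of genes separate in this way was not tested. Rps27l and Rps27 differ in GC share, 43.1% against 50.7%, and the part of that difference in the ratio was not tested. Rpl7l1, a Rpl7 relative that acts in the nucleolus, stood at 11.9% ± 1.45 of Rpl7 in FPKM over 18 samples and was the member that varied least over them.

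Rpl3l and Rps4l were near the bottom of the range. Rpl3l is the Rpl3 paralog of striated muscle, and its raw count per library was 16, 151 and 0 in Sham_Saline, 9, 5 and 31 in SNA_Saline, and 40, 6 and 24 in SNA_NAC. The remaining libraries had 14, 51 and 10 in LAM, 35, 11 and 8 in DCA, and 4, 81 and 12 in Sham_H2O2. A count of 0 in a library of 14285706 counts still allows up to 3 counts. All 8 skeletal muscle markers were in the table, with a sum of 8.41 CPM in the Sham_Saline library with 0 counts and 1522 CPM in the one with 151. The second highest Rpl3l count, 81 in Sham_H2O2 replicate 2, came with the second highest marker sum, 619 CPM. No reading of Rpl3l between groups is therefore given beyond its fit, a log2 fold change of -1.11 (SE 1.02, edgeR adjusted p = 0.502) after sciatic injury. Rps4l is annotated as a transcribed processed pseudogene (1 exon, chr6:148354656-148355598, plus strand) within Tmtc1 on the opposite strand. It stood at 2.14% ± 1.73 of Rps4x in FPKM over 18 samples, and whether the counting used strand is not given in the sources used here.

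**Figure D5:**
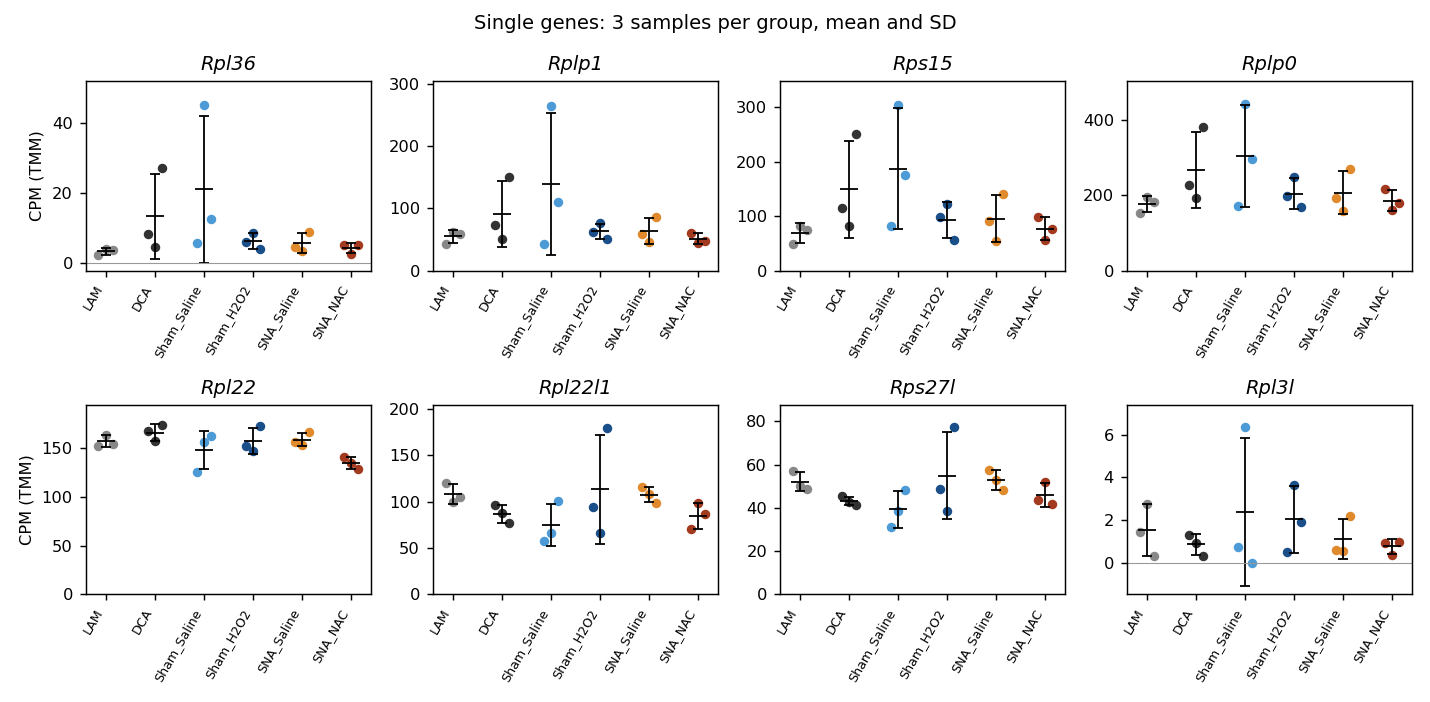
CPM of 8 ribosomal protein genes in each of the 18 samples (points, 3 per group) with the group mean and SD as bars; each panel has its own axis. Rpl36, Rplp1, Rps15 and Rplp0 are highest in Sham_Saline replicate 2, and Rpl22 in SNA_NAC lies between 129 and 141.

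In the antioxidant comparison all members lay on the same side of 0. For SNA_NAC against SNA_Saline, which asks how N-acetyl-cysteine alters the injured ganglion, all 81 fitted log2 fold changes were negative, from -0.50 to -0.08, where 50.6% of all genes were negative. None passed the test, the smallest adjusted p was 1.00, and the share of counts in the family overlapped between the groups. In 24 of 81 members (29.6%) every SNA_NAC sample lay below every SNA_Saline sample, as in 5.63% of all genes. The members were read from the same libraries, so these counts are descriptions and not 81 separate observations. The median deviation of the members in a library overlapped between the groups. By replicate it was -0.09, -0.28 and -0.30 in SNA_NAC and 0.05, -0.17 and 0.22 in SNA_Saline. Rpl22 had 141, 135 and 129 CPM in SNA_NAC and 156, 154 and 167 in SNA_Saline, with a log2 fold change of -0.24 (SE 0.10, edgeR adjusted p = 1). Rps6 had 186, 188 and 189 and 239, 195 and 236 CPM, also without overlap, and -0.25 (SE 0.15). Rps23, a protein of the decoding centre, had 153, 142 and 127 and 187, 158 and 189 CPM and -0.34 (SE 0.17). Rps18 overlapped between the groups, with 131, 83.0 and 104 and 135, 88.6 and 166 CPM.

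Other short transcripts lay below 0 in this comparison as well. Of 76 mitochondrial ribosomal protein genes 73 had a negative log2 fold change (median -0.17, 0 called), and of 74 nuclear genes of the respiratory chain 72 did (median -0.21, 0 called). Their median transcripts were 1280 and 693.5 bases long. Over all genes, rho between transcript length and log2 fold change was 0.47, the largest of the 7 comparisons. With the GC and length offsets, 77 of the 81 ribosomal protein genes were still negative, with a median of -0.13, and 14 did not overlap between groups, where 7.67% of all genes were lower in that way. With the same offsets the medians were -0.09 for the mitochondrial ribosomal protein genes and -0.05 for the respiratory chain genes. When only these 2 groups entered the fit, 38 members had an unadjusted p under 0.05 against 8.6% of all genes, and with offsets, a setting added after seeing the data, 24 against 11.3%; 0 passed the adjusted threshold in either. Without SNA_Saline replicate 3, 10 members were above 0 and the median was -0.17. The summed level of the 6 Schwann cell markers was 8206 to 8274 CPM in SNA_NAC and 8651 to 9442 in SNA_Saline, with 0 markers at 0. The 4 neutrophil markers summed to 156 to 205 CPM in SNA_NAC and 239 to 374 in SNA_Saline, also without overlap, and the 5 red blood cell markers to 204 to 293 and 278 to 708. The sums of the sensory neuron markers overlapped, with 16339 to 17739 CPM in SNA_NAC and 16241 to 16988 in SNA_Saline. Those of satellite glia, macrophages, endothelium, fibroblasts and skeletal muscle overlapped between these groups as well. The part of these marker sums in the result was not tested.

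The counts and medians in comparisons with Sham_Saline changed with the library left out. Without Sham_Saline replicate 1, edgeR called 13 members lower for SNA_Saline against Sham_Saline, with 8.06% of all genes called lower, and the median of the members was -0.38. For SNA_NAC against Sham_Saline it called 56 members lower (18.9% of all genes), with a median of -0.60. For Sham_Saline against LAM it called 41 higher (19.7% of all genes), with a median of 0.43, and for the difference between responses 41 lower (16.9%), with a median of -0.57. For Sham_H2O2 against Sham_Saline it called 0 lower (0%), with a median of -0.38. Sham_Saline replicate 1 had been picked by its low member values, so these calls show only how far the results rest on 1 library. Among the genes named above, Rpl36 went to -2.37, Rplp1 to -1.56 and Rplp0 to -0.84 for SNA_Saline against Sham_Saline, and these 3 passed. Rps27l went to 0.29 and did not pass. Without Sham_Saline replicate 2 they moved towards 0, to -0.67 for Rpl36, -0.25 for Rplp1 and -0.18 for Rplp0, and none passed. The difference between responses for Rpl36 was -2.69 without that library. For DCA against LAM, Rpl36 went from 2.02 to 0.96 without DCA replicate 3. Without Sham_Saline replicate 2 or 3 in place of it, no member was called. The member medians were then 0.00 and 0.01 for SNA_Saline against Sham_Saline, -0.24 and -0.23 for SNA_NAC against Sham_Saline, 0.02 and 0.02 for Sham_H2O2 against Sham_Saline, 0.05 and 0.08 for Sham_Saline against LAM, and -0.22 and -0.24 for the difference between responses. The 2 surgical controls, Sham_Saline and LAM, gave member log2 fold changes in the range of -0.54 to 2.68. The dorsal column comparison leaned on DCA replicate 3: its member median of 0.22 fell to 0.06 without that library, and that of the difference between responses went from -0.35 to -0.18.

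A few genes that make or regulate ribosomes rose after sciatic injury, where 2.73% of all genes were called. Of 41 measured genes of ribosome assembly and RNA polymerase I, 3 rose in SNA_Saline against Sham_Saline and 0 fell, with a list median of 0.05. Nop58, a core protein of box C/D small nucleolar ribonucleoproteins, had a log2 fold change of 0.67 (SE 0.15, edgeR adjusted p = 0.0247), from 33.7 ± 4.28 to 53.8 ± 7.71 CPM (SD, n = 3). Gnl2, a nucleolar GTPase of large subunit assembly, had a log2 fold change of 0.45 (SE 0.08, edgeR adjusted p = 0.00491), from 58.6 ± 3.15 to 80.1 ± 3.62 CPM (SD, n = 3). Sbds, which helps to release the large subunit for use, had a log2 fold change of 0.38 (SE 0.10, edgeR adjusted p = 0.041), from 101 ± 11.9 to 131 ± 1.25 CPM (SD, n = 3). Of 17 regulators of ribosomal protein messenger RNAs 3 rose and 0 fell: Eif4e, the cap-binding protein that the mTOR pathway controls, and the transcription factors Mycn and Myc. Eif4e had a log2 fold change of 0.77 (SE 0.14, edgeR adjusted p = 0.00581), from 143 ± 23.8 to 245 ± 31.9 CPM (SD, n = 3), and Myc had a log2 fold change of 0.62 (SE 0.15, edgeR adjusted p = 0.0357), from 10.9 ± 2.52 to 16.8 ± 0.439 CPM (SD, n = 3). With the replicate block, 1 gene of each list stayed called (Gnl2 and Eif4e), and with only these groups in the fit 0 did. Without Sham_Saline replicate 1, 9 assembly genes were called higher and 4 lower, and 4 regulators higher and 0 lower, with 16.2% of all genes called. Without Sham_Saline replicate 2, SNA_Saline replicate 1 or SNA_Saline replicate 2, Gnl2 was the 1 assembly gene called. Without Sham_Saline replicate 3 or any 1 SNA_Saline replicate, Eif4e was the 1 regulator called. In SNA_NAC against Sham_Saline, Nop58, Gnl3, Gnl2 and Eif4e rose (3.32% of all genes called), and Nop58 and Eif4e were also called in the difference between the responses (1.61%). With the GC and length offsets Nop58 went from 0.79 to 0.37 (edgeR adjusted p = 0.0786) and from 0.94 to 0.54 (adjusted p = 0.0763), and neither passed, while Gar1, Polr1a and Rrs1 were then called in the difference. Without Sham_Saline replicate 2, SNA_Saline replicate 1 or 2, DCA replicate 3 or any 1 LAM replicate, neither Nop58 nor Eif4e was called in the difference. Nop58 was also not called there without Sham_Saline replicate 3 or DCA replicate 1, or with the replicate block. Without Sham_Saline replicate 1, 9 assembly genes were called higher and 10 lower in the difference. Of all 15730 genes, 1934 were then called higher and 2666 lower. For SNA_NAC against Sham_Saline, Gnl2 was the 1 assembly gene called without Sham_Saline replicate 2 or SNA_NAC replicate 2. Without Sham_Saline replicate 1 there were 12 higher and 10 lower, where 2887 of all 15730 genes were called higher and 2974 lower. With only the groups of that comparison in the fit, 0 genes of both lists were called. After dorsal column injury no gene of the table was called by edgeR (0%), and 3 of 41 and 2 of 17 genes of these lists had an unadjusted p under 0.05, against 5.04% of all genes. The 15 translation factors of the same pyrimidine-tract class, such as Eef1a1 and Tpt1, had 0 calls in all 7 comparisons. For SNA_NAC against SNA_Saline 15 of 15 were below 0 (median -0.15, and -0.07 with the offsets). Elsewhere their median was 0.16 for SNA_Saline against Sham_Saline, 0.00093 for DCA against LAM and -0.0073 for SNA_NAC against Sham_Saline. It was 0.07 for Sham_H2O2 against Sham_Saline, -0.17 for Sham_Saline against LAM and 0.25 for the difference between responses. The 4 measured ribosome-linked genes that the naming rule leaves out, with Fau and Gnb2l1 (now Rack1) among them, also had 0 calls, and medians of -0.36 after sciatic and 0.43 after dorsal column injury.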

How the data were processed

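RNA was sequenced from pooled mouse ganglia, 18 samples in 6 groups of 3. The authors deposited whole-number counts per gene and FPKM values; the submitters' processing notes name TopHat2 2.0.12, Bowtie2 2.2.3, HTSeq 0.6.0 and build mm10 without roles. Libraries came from a stranded mRNA kit, per the labels' protocols, and the use of strand in counting is not given in the sources used here. The table's lowest mean count was 10.1, so genes of low count appear to have been removed, and all 81 members' FPKM are proportional to their counts (tolerance 0.01 log2).

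Counts were fitted with edgeR 4.0.16 in R 4.3.3 (TMM, filterByExpr, glmQLFit, glmQLFTest), all 18 samples in 1 fit, with Benjamini-Hochberg adjustment over 15730 genes and a threshold of 0.05. Standard errors are the absolute log2 fold change over the square root of F. Log2 CPM used a prior count of 2. Offsets were natural splines (5 degrees of freedom) of GC share and transcript length per sample, from GENCODE M21 transcripts of GRCm38, the same build as mm10; gene positions come from it. The methods were tested on simulated data. Alternatives were DESeq2 1.42.0, limma 3.58.1 on log2(FPKM + 1) and log2(FPKM + 0.1), other scalings and filters, an adjusted p under 0.10, a replicate block and leaving out each sample; offsets fitted on a contrast's own groups, and every setting for the assembly and regulator lists, were added after seeing the data. Depth ran from 6472476 to 42435331 counts, and intervals from counts cover counting error only.

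Replicate numbers equal the sequencing lanes in the labels, which is where the pairing comes from; same-numbered samples are different mice, and their deviations correlated between -0.65 and 0.56. The members and gene lists were chosen with earlier results of these data known. Named members were, per comparison, the called ones or the 2 of smallest p, the highest and lowest in FPKM, the stalk, members with known further roles, paralogs with their partners, and the most and least variable; some items are not reported here. Of each other list, at most 4 called genes or the 2 most abundant were named. Ribosomal protein symbols found only in the FPKM table are given in the closing section. Drawings used matplotlib 3.10.9.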

Additional observations from a re-analysis of the deposited data

How the results depend on the processing

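The member medians kept their direction under the 13 other settings that kept all samples, from -0.18 to -0.08 for SNA_Saline against Sham_Saline and from -0.29 to -0.12 for SNA_NAC against SNA_Saline. Counts that moved are given with calls over all genes in brackets. For SNA_NAC against Sham_Saline 1 member (Rpl36) was called at 0.10 (726 genes higher, 562 lower). The same member was called there under DESeq2 (7.77%) or the GC and length offsets (7.77%). For Sham_Saline against LAM, 3 were called under DESeq2 (6.88%). For the difference between responses it was 9 at 0.10 (933 higher, 1465 lower), 7 under DESeq2 (10.4%) and 2 with the offsets (5.72%). With the offsets and the replicate block it was 1 (Rpl36; 434 higher, 226 lower). With offsets and only its 4 groups it was 3 (Rps2, Rpl36 and Rpl39), against 584 higher and 401 lower of 15718 genes. That last setting was added after seeing the data. Leaving out 1 sample gave 0 to 13 called members for SNA_Saline against Sham_Saline and 0 to 56 for SNA_NAC against Sham_Saline. It gave 0 to 41 for Sham_Saline against LAM and 0 to 41 for the difference. The highest values came without Sham_Saline replicate 1, where 2548, 5861, 5009 and 4600 of all genes were called in these comparisons. The difference had 1 call (Rpl36) without DCA replicate 2 (121 genes higher, 39 lower) or SNA_Saline replicate 3 (296 higher, 232 lower). The cause was not tested. Without 1 sample the member medians ran from -0.38 to 0.01 for SNA_Saline against Sham_Saline, from 0.06 to 0.38 for DCA against LAM, from -0.36 to -0.17 for SNA_NAC against SNA_Saline and from -0.38 to 0.02 for Sham_H2O2 against Sham_Saline.

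The block ended the offsets' call of Rpl36 for SNA_NAC against Sham_Saline, and for SNA_Saline against Sham_Saline it took the called assembly genes from 3 to 1 and the regulators from 3 to 1, a check of these lists that was added after seeing the data. From the counts as deposited, the replicate block changed no call of a member: the counts stayed at 0 in all 7 comparisons, and the member medians with the block were -0.13, 0.20, -0.26, -0.34, -0.09, 0.19 and -0.33. As a share of summed FPKM the members took 3.37% in Sham_Saline, 3.05% in SNA_Saline, 2.65% in SNA_NAC, 3.04% in Sham_H2O2, 2.89% in LAM and 3.33% in DCA. Without mitochondrial-genome genes and the 10 most abundant others, their share of counts was 1.56% in LAM, 1.37% in SNA_NAC and 1.65% in Sham_H2O2. With 3 samples a group, an exact permutation test of a single value cannot go below 0.10.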

Other observations

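The 6 further symbols of the family appear only in the authors' FPKM table and were near or at 0 in all libraries. Rpl39l, a paralog of Rpl39 known from testis, had a median of 0.0532 FPKM and a highest value of 0.441 (DCA). Rps3a3 and Rps3a2, copies of Rps3a1, had medians of 0.0816 and 0.0814 FPKM with maxima of 0.260 and 0.177. Rps12l1 was above 0 in 2 of 18 samples, up to 0.0842 FPKM. Rpl10l, a paralog of Rpl10 of the male germ line, and Rps12l2 were listed at 0 in all 18. The symbol Rpl24 in that table belongs to an identifier that the count table names Zbtb11, and it was not used here.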
